A study of Mus musculus with 8 samples.

Results

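The kallikrein-related peptidases are secreted serine proteases encoded side by side on mouse chromosome 7. The 10 genes described here, Klk5 to Klk14, were chosen by symbol from 30671 genes measured in forepaw skin. Each of the 10 had 1 probe set of its own on the array. Gene expression was measured on single-colour Affymetrix arrays in 4 Krt16 null mice, in which bacterial LacZ stands in place of the Krt16 coding sequence, and in 4 wild-type (WT) littermates. All mice were C57Bl/6 and 8 weeks old, each genotype comprised 2 males and 2 females, and 1 array was run per mouse. Krt16 encodes a keratin of palm, sole and stressed epidermis. The labels call the skin of every null mouse a lesion and that of every WT mouse normal, and the effect of the allele cannot be told apart from that of the lesion.

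Kallikrein-related peptidases are made as inactive precursors, and removal of a short propeptide by another protease switches them on. In the upper epidermis Klk5, Klk7 and Klk14 cut the proteins that hold corneocytes together, and so allow the outermost cells to be shed. The inhibitor LEKTI, the product of Spink5, holds them in check, and its loss causes Netherton syndrome in humans. Several trypsin-like members can also activate the receptor PAR2 on keratinocytes.

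Signals are RMA values in log2 units, where a difference of 1 is a doubling, and each difference is the null mean minus the WT mean, with a standard error (SE). Calls were made with limma at an adjusted p under 0.05, by the Benjamini-Hochberg method over all 30671 genes. Arrays carry no read depth, and their number limits the precision. Negative control probe sets had medians of 4.26 to 4.46 (log2) on the 8 arrays, and all 10 kallikrein genes lay above them on every array. Values of 4 arrays are listed in the order male 1, male 2, female 1 and female 2. Krt16 gave 6.83, 6.87, 6.89 and 6.99 in null skin, against 8.48, 8.20, 7.05 and 9.66 in WT skin, a difference of -1.45 (SE 0.44, limma adjusted p = 0.0616). Probe positions were not used here, and a probe outside the replaced sequence checks nothing about the allele. Female WT 1 stood apart from the other WT arrays in the alarmin gene S100a8, at 8.70 against 3.25 to 5.21.

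The comparison asks how the kallikrein genes differ between lesional null and normal WT paw skin. Of the 10, 8 rose in null skin, 0 fell and 2 did not pass. Over all genes 7.06% were called higher and 5.97% lower. The median difference of the 10 was 1.12 (log2), against 0.01 over all genes. In 9 of the 10 every null array lay above every WT array, which was so for 10.1% of all genes, and in 0 of the 10 every null array lay below, against 8.76% of all genes. Among the members, 5 were called and at least 2-fold higher, as were 0.623% of all genes. Without female WT 1 the same counts of 8 higher and 0 lower were found. In bulk skin, fewer cells of a type and less RNA per cell cannot be told apart.

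**Figure D1:**
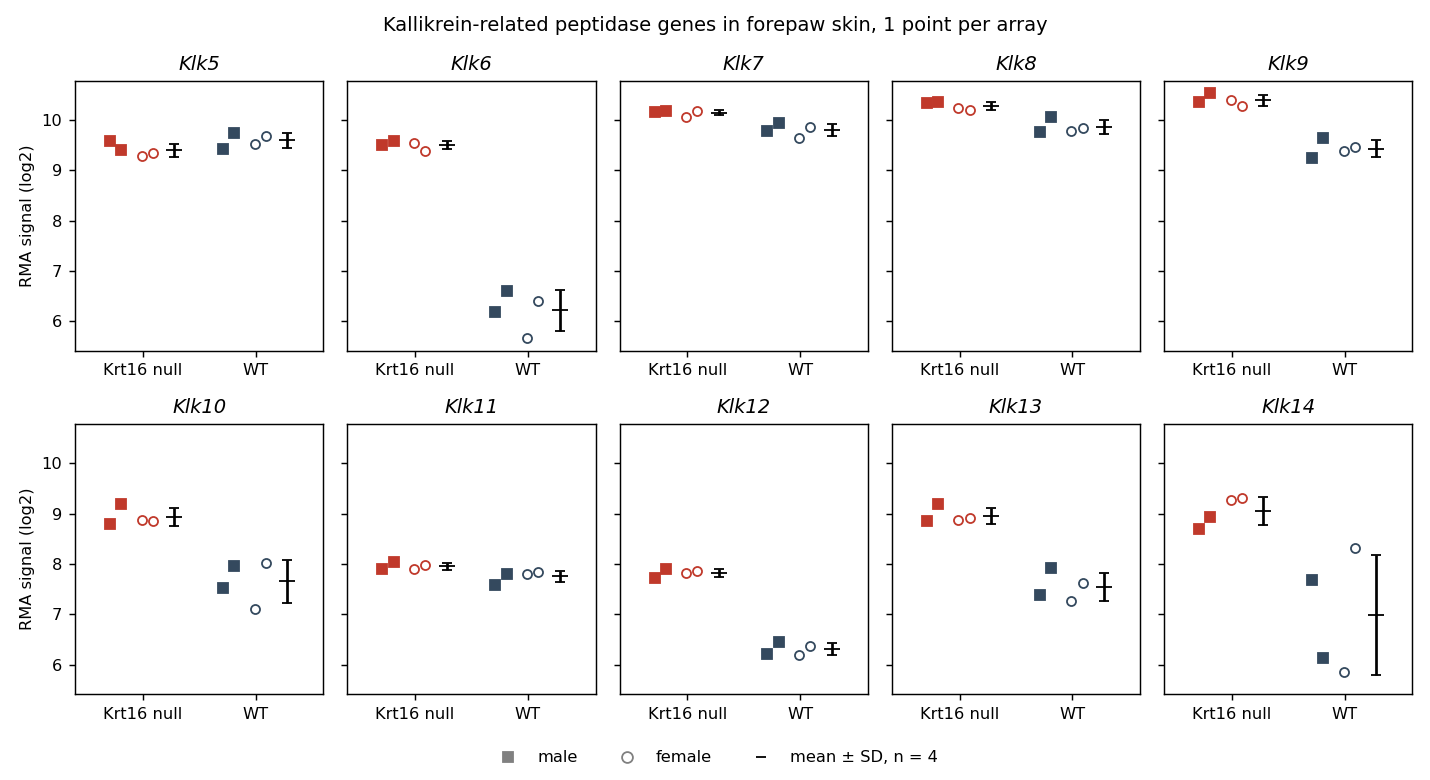
RMA signal (log2) of each kallikrein-related peptidase gene in 4 Krt16 null and 4 WT arrays, with 1 point per array, squares for males, open circles for females, and a bar for the mean ± SD (n = 4). The null points of Klk6 lie near 9.5 and its WT points at 5.66 to 6.61, while the points of the genotypes intermingle in Klk5.

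Klk6 had the largest difference of the 10. It encodes a trypsin-like protease best known from the nervous system and also made in epidermis. Its signal was 9.50 and 9.59 in null males and 9.55 and 9.39 in null females, against 6.19 and 6.61 in WT males and 5.66 and 6.41 in WT females. The lowest null array thus stood 2.78 above the highest WT array. The mean was 9.51 ± 0.08 in null and 6.22 ± 0.41 in WT skin (SD, n = 4 each), a difference of 3.29 (SE 0.16, limma adjusted p = 6.41e-06) or 9.75-fold. By the size of its rise Klk6 ranked 31 among the 30671 genes.

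The 250 bases before the start sites of Klk6 are shown because this gene had the largest difference, beside those of Klk12, the member with the next smallest p, and of Klk5, the only member with a lower mean in null skin. They are RefSeq sequences of build GRCm38.p6, all on the plus strand, written 5′ to 3′, with capitals marking the GC box letters GGGCGG or their reverse complement.
Klk6, first start (chr7:43824294-43824543): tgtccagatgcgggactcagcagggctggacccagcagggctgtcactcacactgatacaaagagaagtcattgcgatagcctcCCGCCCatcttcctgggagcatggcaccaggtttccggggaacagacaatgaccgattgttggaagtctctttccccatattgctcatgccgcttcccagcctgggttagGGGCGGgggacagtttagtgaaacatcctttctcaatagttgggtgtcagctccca
Klk6, second start (chr7:43825200-43825449): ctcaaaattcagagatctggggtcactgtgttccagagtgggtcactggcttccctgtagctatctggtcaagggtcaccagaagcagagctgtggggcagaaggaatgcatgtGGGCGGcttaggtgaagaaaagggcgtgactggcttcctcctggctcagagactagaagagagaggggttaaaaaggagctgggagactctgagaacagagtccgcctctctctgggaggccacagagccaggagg
Klk12 (chr7:43768850-43769099): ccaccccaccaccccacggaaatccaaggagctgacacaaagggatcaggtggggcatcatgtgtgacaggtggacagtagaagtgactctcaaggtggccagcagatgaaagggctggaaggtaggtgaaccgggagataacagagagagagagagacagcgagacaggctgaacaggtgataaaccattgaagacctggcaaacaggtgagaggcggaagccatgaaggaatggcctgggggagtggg
Klk5 (chr7:43842019-43842268): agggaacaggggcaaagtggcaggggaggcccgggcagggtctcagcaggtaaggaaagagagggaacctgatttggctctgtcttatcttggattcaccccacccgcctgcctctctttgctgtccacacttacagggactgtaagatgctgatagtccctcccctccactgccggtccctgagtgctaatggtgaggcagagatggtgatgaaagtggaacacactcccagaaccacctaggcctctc

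RefSeq gave 12 windows for the 10 genes, each of 250 bases before and 50 bases after a start, since Klk6 and Klk11 have a pair of starts each. Letters were searched on both strands, and the AP-1 and antioxidant response letters can share bases. GC boxes were found in windows of Klk6, Klk7, Klk8 and Klk9, that is in 5 of the 12 windows, against 35.7% of all 32851 windows. In the first Klk6 window they began 166 and 56 bases before the start, and in the second 136 bases before it. The STAT letters TTCNNNGAA occurred in 1 window, that of Klk10, against 8.3% of all windows. The letters TATAAA (13.6% of all windows), the AP-1 letters TGANTCA (7.81%), the antioxidant response letters TGACNNNGC (12.4%) and the grainyhead letters AACCNGTT (2.09%) occurred in 0 of the 12. A match of letters is a description of the sequence and does not show that a factor binds.

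Of the corneocyte-shedding proteases, Klk14 and Klk7 rose and Klk5 did not pass. Klk14, a trypsin-like protease that cuts desmoglein and can activate PAR2, gave 8.70 and 8.94 in null males and 9.26 and 9.30 in null females, against 7.67 and 6.12 in WT males and 5.85 and 8.31 in WT females. The WT arrays were spread far more widely than the null arrays, yet all lay below them. The means were 9.05 ± 0.28 in null and 6.99 ± 1.19 in WT skin (SD, n = 4 each), a difference of 2.06 (SE 0.49, limma adjusted p = 0.0248). Without male WT 2 the limma adjusted p was 0.0686, without male null 2 it was 0.0731, without female null 1 it was 0.0726 and without female null 2 it was 0.0612. With a robust prior it was 0.109. The difference was 1.54 to 2.52 over the arrays left out, lowest without female WT 1.

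Klk7, the chymotrypsin-like protease of the outer epidermis, rose by little. It gave 10.15, 10.18, 10.06 and 10.17 in null arrays, against 9.78, 9.93, 9.64 and 9.86 in WT arrays. The groups did not overlap, with a gap of 0.14 between them, and the difference was 0.34 (SE 0.07, limma adjusted p = 0.0125) or 1.27-fold.

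Klk5, a trypsin-like protease that can activate itself and other members, was not called. It gave 9.58 and 9.41 in null males and 9.28 and 9.34 in null females, against 9.43 and 9.75 in WT males and 9.53 and 9.68 in WT females. The groups overlapped, since male null 1 exceeded male WT 1 and female WT 1. The difference was -0.20 (SE 0.09, limma adjusted p = 0.189), below 0 where the other 9 members were above it.

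Of the trypsin-like members without a settled part in shedding, Klk12 and Klk13 rose clearly. Klk12 gave 7.71, 7.90, 7.82 and 7.86 in null arrays, against 6.20, 6.45, 6.19 and 6.36 in WT arrays. This was a tight separation, with SDs of 0.08 in null and 0.12 in WT skin, and a difference of 1.52 (SE 0.08, limma adjusted p = 6.69e-06) or 2.87-fold. Klk13 gave 8.85, 9.18, 8.88 and 8.91 in null arrays, against 7.38, 7.91, 7.27 and 7.62 in WT arrays. Its difference was 1.41 (SE 0.13, limma adjusted p = 0.000295), again without overlap.

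Klk10 and Klk9 also rose. Klk10, whose product is thought to have little protease activity, gave 8.80, 9.19, 8.87 and 8.85 in null arrays, against 7.53, 7.95, 7.10 and 8.01 in WT arrays. Male null 2 was the highest null array and female WT 1 the lowest WT array, and the difference was 1.28 (SE 0.18, limma adjusted p = 0.0031). Klk9, one of the less studied members, gave 10.35, 10.53, 10.39 and 10.27 in null arrays, against 9.24, 9.65, 9.39 and 9.46 in WT arrays. With a gap of 0.62 between the groups, its difference was 0.95 (SE 0.09, limma adjusted p = 0.000391) or 1.94-fold.

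Klk8 and Klk11 are trypsin-like proteases expressed in brain and in epidermis. Klk8, also called neuropsin, gave 10.33, 10.36, 10.23 and 10.19 in null arrays, against 9.76, 10.06, 9.78 and 9.84 in WT arrays. Its rise was small but called, at 0.42 (SE 0.07, limma adjusted p = 0.00594) or 1.33-fold. Klk11 gave 7.90, 8.03, 7.89 and 7.98 in null arrays, against 7.58, 7.79, 7.79 and 7.83 in WT arrays. Its groups were 0.07 apart and the difference of 0.20 (SE 0.07, limma adjusted p = 0.0914) was not called.

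Both sexes gave differences of the same sign in all 10 genes, and the share over all genes was not counted. For Klk6 the difference was 3.43 in females and 3.14 in males, and for Klk12 it was 1.56 in females and 1.48 in males. Klk6, Klk9, Klk12 and Klk13 were called within each sex, 4 of 10 in females and 4 of 10 in males, against 1.62% and 1.6% of all genes called higher there. The difference between the sexes was tested as an interaction. It was called in 0 of the 10 by limma (adjusted p 0.974 to 0.997), and 0.00652% of all genes were called. An unadjusted p under 0.05 was found in 0 of the 10 and in 1304 of the 30671 genes. With 2 arrays per sex and genotype, the interaction SE was 0.33 for Klk6 and 1.04 for Klk14.

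**Figure D2:**
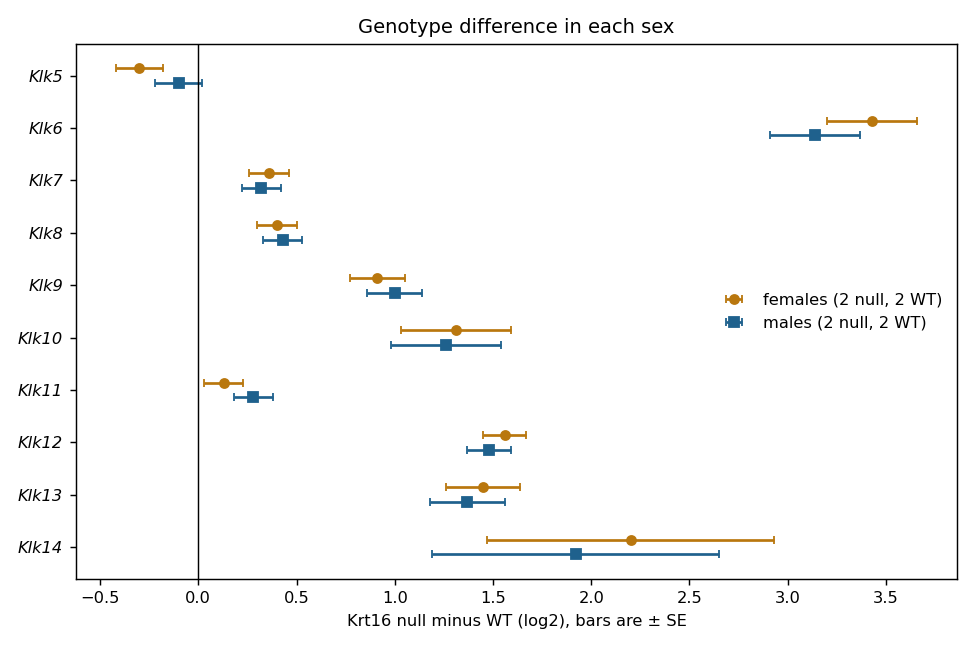
Null minus WT difference (log2) of each kallikrein-related peptidase gene in females and in males, with 2 null and 2 WT arrays behind each point and bars for ± SE. The points of the sexes lie close together, and the widest bars are those of Klk14.

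The null arrays varied less than the WT arrays. The SD was smaller in null than in WT skin in 10 of the 10 genes, against 56.7% of all genes. Among the WT arrays, female WT 1 was lowest in 6 of the 10 and male WT 1 in the other 4, while male WT 2 was highest in 7 and female WT 2 in 3. Over all genes, the lowest WT array was female WT 1 in 26.1%, male WT 1 in 18.2% and female WT 2 in 38.4%, and the highest was male WT 2 in 27.5% and female WT 2 in 21.9%. Female WT 2 was lowest in 0 of the 10. That array also had the highest negative control median, at 4.465 against 4.264 to 4.382 on the other arrays. The part of this in the shares over all genes, dim ones included, was not tested.

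The members are neighbours on the chromosome. Among measured genes in RefSeq order on chromosome 7, Ctu1 is followed by Klk14, Klk13, the long noncoding RNA gene 2310002F09Rik, Klk12, Klk11, Klk10, Klk9, Klk8, Klk7, Klk6 and Klk5, and then by Klk4 and Klk15. Next to Klk14, Ctu1 gave a difference of -0.02 (limma adjusted p = 0.903), and beyond it Siglece, a sialic acid-binding lectin gene named after its values were seen, rose by 0.88 (limma adjusted p = 0.0113). Klk4, an enamel protease gene on the far side of Klk5, gave -0.02 (limma adjusted p = 0.898). The noncoding gene, named after its values were seen, fell amid them. It gave 4.72, 4.91, 4.93 and 4.92 in null arrays, against 5.21, 5.36, 5.14 and 5.79 in WT arrays, a difference of -0.51 (SE 0.12, limma adjusted p = 0.029).

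**Figure D3:**
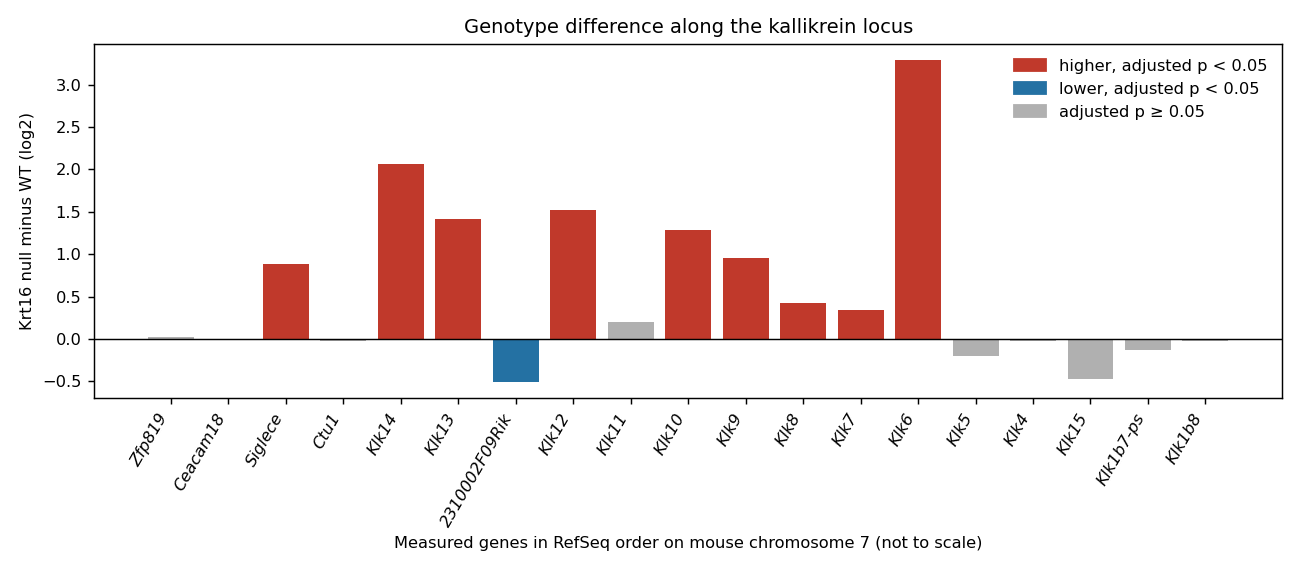
Null minus WT difference (log2) of the measured genes around the kallikrein-related peptidases, in RefSeq order on mouse chromosome 7 and not to scale, with colour for calls at an adjusted p under 0.05. Bars of the called kallikreins run from 0.34 for Klk7 to 3.29 for Klk6, and those of Klk11, Klk5, Klk4 and Klk15 are grey.

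The remaining kallikreins of the locus, Klk1, Klk4, Klk15 and the Klk1b genes, showed no such calls. Of 14 measured, limma called 0 higher and 0 lower, against 7.06% and 5.97% of all genes. In a list of 14, counts of 0 are near those shares. An unadjusted p under 0.05 was found in 0 of them, and the median difference was -0.02. Means of 6 of the 14 lay under the negative control medians, where a difference may not be detectable. Klk1, Klk15 and Klk1b5, named for their wide spread, had SEs of 0.91, 0.68 and 0.55. A rise as large as that of Klk10 might not have been called in them. Those with the smallest p were Klk1b21 (-0.25, limma adjusted p = 0.289) and Klk1b16 (0.13, limma adjusted p = 0.374), both with mean signals under the negative control medians. Klk1b genes are close copies of each other, and it was not checked whether their probe sets read each other's transcripts.

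Genes for protease inhibitors were called in both directions. There were 14 measured, of which 2 rose and 2 fell, against 7.06% and 5.97% of all genes. In a list of 14, these counts are too small to be set apart from those shares. Their median was 0.01, and means of 4 of the 14 lay under the negative control medians, where a difference may not be detectable. Spink5, which encodes LEKTI, gave 11.31, 11.39, 11.26 and 11.40 in null arrays, against 10.91, 11.12, 10.80 and 11.02 in WT arrays. Its rise of 0.38 (SE 0.08, limma adjusted p = 0.0125) had no overlap between groups. Serpina3n, an acute-phase serpin gene, rose by 1.09 (limma adjusted p = 0.00172). Serpina12, which encodes the KLK7 inhibitor vaspin, gave 8.89, 8.41, 8.74 and 8.73 in null arrays, against 9.05, 9.20, 9.10 and 9.18 in WT arrays. All null arrays were the lower ones, and the difference was -0.44 (SE 0.10, limma adjusted p = 0.0182). Serping1, the C1 inhibitor gene, fell by 0.62 (limma adjusted p = 0.0287).

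Among 12 genes for proteases that can activate kallikreins or act upstream of them, 3 rose and 0 fell, with a median of 0.17. The shares over all genes were 7.06% and 5.97%. Means of 3 of the 12 lay under the negative control medians. Tmprss11d, an airway trypsin-like membrane protease gene, gave 7.72, 8.03, 8.16 and 8.19 in null arrays, against 6.20, 6.70, 6.02 and 6.88 in WT arrays. The difference was 1.58 (SE 0.18, limma adjusted p = 0.00112). Tmprss13, another membrane protease gene, rose by 0.45 (limma adjusted p = 0.00537). St14, the matriptase gene, differed by 0.26 without passing (limma adjusted p = 0.0714).

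Targets and receptors showed a single call. Of 13 measured, 1 rose and 0 fell, and over all genes 7.06% rose and 5.97% fell. The count of rises was thus near the share over all genes. The median was -0.02, and means of 2 of the 13 lay under the negative control medians. The PAR2 gene was not analysed here. The shedding substrates gave differences of -0.04 for Cdsn, -0.02 for Dsc1 and -0.06, 0.13 and 0.00 for Dsg1a, Dsg1b and Dsg1c, none of which passed. The called gene was Il1b, a cytokine whose precursor proteases can cleave, at 5.59, 6.34, 6.68 and 4.73 in null arrays, against 3.49, 3.61, 3.92 and 3.42 in WT arrays. The WT values lie under the negative control medians, so the size of its rise of 2.22 (SE 0.37, limma adjusted p = 0.00566) is not exact. Of 10 other proteases of cornifying cells, 6 rose and 0 fell, with a median of 0.36. The mean of 1 of the 10 lay under the negative control medians. The rises were led by the bleomycin hydrolase gene Blmh, which acts on filaggrin peptides (0.91, limma adjusted p = 0.000606), and the cathepsin gene Ctsh (0.73, limma adjusted p = 0.0013).

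**Figure D4:**
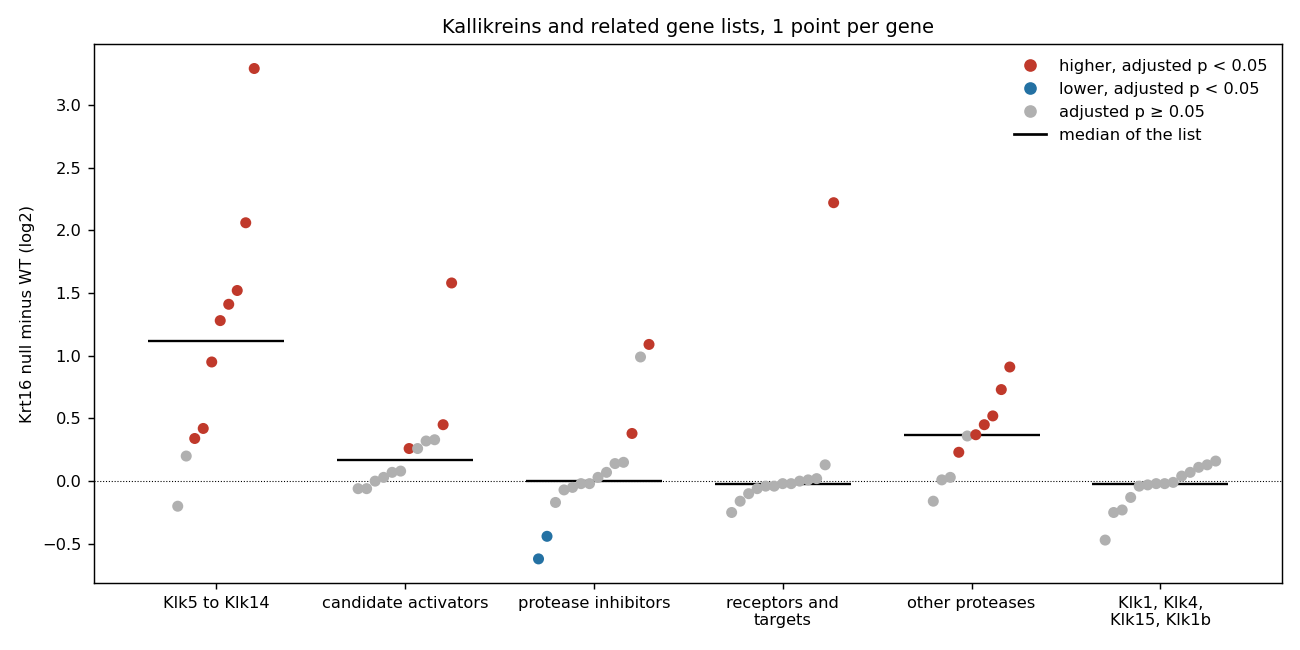
Null minus WT difference (log2) of single genes in the kallikrein-related peptidases and 5 related gene lists, with colour for calls at an adjusted p under 0.05 and a line at each list's median. The median of Klk5 to Klk14 is 1.12, while those of the other lists run from -0.02 to 0.36.

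Markers of the cells that the skin held moved in part with genotype. Beside the counts below, 7.06% of all genes were called higher and 5.97% lower. For 7 granular layer genes, the layer where these proteases are made, the mean log2 signal per array was 11.22 to 11.36 in null and 11.21 to 11.42 in WT skin, 1 of them rose (Casp14, 0.52) and 1 fell (Lor, -0.35). The 6 epidermal keratin genes averaged 11.22 to 11.44 in null and 11.61 to 11.83 in WT arrays. The 2 that fell were Krt9 (-2.46) and Krt2 (-0.60), which carry most of that gap. Krt5 (0.11), Krt14 (0.20), Krt1 (0.08) and Krt10 (-0.08) were not called, and the median difference of the 6 was 0.00. For 8 skeletal muscle genes the mean was 8.33 to 8.99 in null and 9.10 to 9.86 in WT arrays, with 0 higher and 6 lower. Sebaceous gland genes averaged 7.06 to 7.32 in null and 7.44 to 7.90 in WT arrays, with 4 of 6 lower. Sweat gland genes averaged 7.03 to 7.38 in null and 6.98 to 7.38 in WT arrays, with 0 of 7 called and 1 at an unadjusted p under 0.05. Of 6 genes used as neutrophil markers, 3 rose, S100a8, S100a9 and Cxcr2, and the first and second of these are also made by keratinocytes. Ly6g (0.01), Mpo (-0.16) and Elane (-0.06) were not called. Of the remaining lists, limma called 0 of 6 hair follicle genes, 0 of 4 mast cell genes and 0 of 4 fat genes. An unadjusted limma p under 0.05 was found in 4 hair follicle and 4 mast cell genes, all lower in null skin, and in 0 fat genes. Dcn fell among 5 fibroblast genes and Cd3g rose among 4 T cell genes, all 4 of which had means over the 8 arrays under the negative control medians. The granule gene Elane lay under the negative control medians on average in both genotypes. The part of these shifts in the kallikrein differences was not tested.

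By its pattern over the 8 arrays, Klk6 was most like Grip1, Dnajb11, Mxd1, Cdv3 and Nabp1 among named genes outside the family, at Pearson r of 0.9987, 0.9968, 0.9956, 0.9950 and 0.9947. These are correlations over arrays of both genotypes, so the genotype difference carries most of each. Within the family, r with Klk6 over the 8 arrays was highest for Klk12 (0.994) and lowest for Klk5 (-0.569). With the means of the 4 groups removed, which leaves 4 free values, r with Klk6 was highest for Klk10 (0.949) and was 0.643 for Klk5. Outside the family Hs3st3b1, Ercc5, Tubg2, Mrps27 and Pqbp1 were then the most alike, at r of 0.9983, 0.9975, 0.9973, 0.9968 and 0.9967. With so few free values, high correlations arise among many genes.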

How the data were processed

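Gene expression was measured on Affymetrix arrays, 1 per mouse, from total RNA labelled with the WT PLUS kit, per the labels. The deposited values are log2 signals per probe set, for which the authors used Partek and RMA, per the submitters' processing notes. Their versions, settings and genome build were not given in the sources used here. RMA compresses large fold changes.

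Of 72688 probe sets, 6732 controls were left out. Probe sets were named from the array annotation, with symbols updated through a RefSeq table of GRCm38.p6. A probe set of several genes was not named, and the brightest stood for a gene with several. No filter on dim genes was used. Differences were fitted with limma 3.58.1 in R 4.3.3 (lmFit, eBayes with trend) with sex as a covariate, and the interaction on 4 group means. The fit was tested on simulated data. Tables were made with Python 3.11.15.

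Genes named were all 10 members and, per related list, up to 2 largest called rises and falls, or the 2 smallest p where none was called. St14, the substrates of shedding, the cell markers and genes marked so were added. The members and lists were chosen with earlier results of these data known. Same-numbered mice of a sex were checked for pairing, since titles number the mice: deviations from group means correlated at 0.316 in males and 0.115 in females, over the limit of 0.1. The labels do not state which mice shared a litter or a day. Alternatives are given in the closing section.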

Additional observations from a re-analysis of the deposited data

Results flagged for a closer look

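In Klk11, male WT 1 lay apart from the other WT arrays, at 7.58 against 7.79, 7.79 and 7.83. Of 20 sets of 4 arrays examined, 1 for each gene and genotype, this was the only one with an array set so far from the rest, and chance gives about 1 in 20.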

How the results depend on the processing

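Each of the 10 differences was refitted under 19 alternatives, and none changed sign. Treating same-numbered mice as a replicate block left 8 members called higher and 0 lower, and changed no member's call. Over the 11 alternatives that keep all arrays, 7 to 9 members were called higher. The count was 9 with array weights, where Klk11 passed (0.23, limma adjusted p = 0.0493), and 7 with a robust prior, where Klk14 did not (limma adjusted p = 0.109). With each array left out in turn, 7 to 8 members were called higher and 0 lower, and the lost call was that of Klk14. The sex interaction was called in 0 members under every alternative that gave it. Over all genes, the counts with 1 array left out were 1201 to 2287 higher and 836 to 1861 lower, against 2164 and 1831 with all arrays. They were 1309 higher and 1069 lower without male WT 1, 1201 and 836 without male null 2, and 1228 and 839 without female null 1, while 1106 were lower without female null 2. These fits have fewer samples.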

Other observations

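Klk14 was highest in the same WT arrays as Klk15, Spink6 and Krt31, genes chosen after their values were seen. In WT arrays male 1, male 2, female 1 and female 2, Klk14 gave 7.67, 6.12, 5.85 and 8.31, and the kallikrein gene Klk15 gave 7.71, 4.96, 5.87 and 8.27. The protease inhibitor gene Spink6 gave 7.02, 4.61, 4.78 and 7.53 there, and the hair keratin gene Krt31 gave 10.15, 8.65, 8.15 and 10.33. In all 4 genes female WT 2 was highest and male WT 1 next. That order was not particular to them. It was also seen in Krt16 (8.48, 8.20, 7.05 and 9.66), Krt9 (11.37, 11.18, 11.11 and 11.78) and Spink12 (7.71, 5.61, 6.00 and 8.20). Among sweat gland markers, Slc12a2 and Atp6v1b1 had it, while Aqp5, for example, did not. Apart from Krt31, female WT 2 was not highest in any hair follicle gene of the marker list. Krt25, for example, gave 9.79, 9.86, 8.66 and 9.78, and Krt35 gave 7.44, 7.09, 6.04 and 7.37.

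In null arrays male 1, male 2, female 1 and female 2, Klk14 gave 8.70, 8.94, 9.26 and 9.30. Klk15 gave 6.56, 4.87, 7.01 and 6.50 in them, Spink6 gave 6.49, 4.11, 6.76 and 6.31, and Krt31 gave 8.96, 7.14, 9.19 and 8.67. Male null 2 was thus the lowest null array in Klk15, Spink6 and Krt31 and not in Klk14. Klk15, Spink6 and Krt31 were not called between genotypes (limma adjusted p = 0.74, 0.973 and 0.414). What sets these values was not tested.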
